A study of Homo sapiens with 24 samples.

Results

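The comparison is of newly made RNA in U2OS cells, a human osteosarcoma line with little glucocorticoid receptor of its own, that stably expressed the separation-of-function mutant of the glucocorticoid receptor (SoF, K492A GR-HaloTag). Its 4 libraries were taken, by their labels, from the 24 libraries of the series: 2 after 2 h of 100 nM dexamethasone, a synthetic glucocorticoid, and 2 given 0.01% ethanol (0 h). The other lines expressed wild-type GR (wt GR-HaloTag) or the control mutant (Ctrl, R470A GR-HaloTag), with 2 libraries for each line and time, and serve below only as a comparison. K492A was made to lower the affinity of the receptor for RNA and also lowers its affinity for DNA, and R470A was made to match the lower DNA affinity. In 4sU-seq, cells build 4-thiouridine (here 200 µM for the last 1 h) into new transcripts, which are then pulled down and sequenced. The 2 h libraries therefore hold RNA made in the second hour of treatment.

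Each line was 1 stable pool, made by transposon insertion, puromycin selection and sorting on a HaloTag dye, so the construct and the pool cannot be told apart. The medium was replaced in the ethanol dishes too, and how long they were then kept is not given in the sources used here. The time since the medium change and the action of dexamethasone thus cannot be told apart in any difference between 2 h and 0 h.

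The glucocorticoid receptor is a nuclear receptor that waits in the cytoplasm in a complex with heat shock proteins and immunophilins. Once it holds hormone it enters the nucleus and binds DNA, where it raises transcription of some genes directly, and it lowers transcription of others, among them inflammatory genes driven by AP-1 and NF-kB. Genes with a well-known rise under glucocorticoids include those for the cochaperone FKBP5, the clock protein PER1 and the fuel switch PDK4.

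The 4 libraries had 9199479 to 13410755 counts each. Levels are given as CPM (counts relative to the library total, scaled with TMM factors), and a gene was called when its adjusted p was under 0.05 in edgeR's quasi-likelihood test. The separate culture of replicates is not stated, so p-values measure the spread between libraries, which may be technical. VIM, COL1A1 and SPARC, mesenchymal markers, had mean RPKM (CPM per kilobase of exon) of 119, 35.4 and 56.7 at 0 h, whereas TWIST1 and COL1A2, of the same list, had 0 and 15 counts in the 4 libraries together. Of 6 blood markers only PTPRC passed the filter on low counts, at no more than 0.123 RPKM. Of 7 epithelial markers 4 passed, and their summed level was 71.1 to 106 RPKM at 0 h and 115 to 146 RPKM at 2 h. Most of it was KRT18 (mean 68.1 RPKM at 0 h and 95.2 at 2 h) and KRT8 (18.8 and 34.2). EPCAM was at 0.613 and 0.641 RPKM and CDH1 at 0.946 and 0.409. KRT19, ESRP1 and GRHL2 had 2, 7 and 2 counts in the 4 libraries together. The part of those markers in the results was not tested.

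NR3C1, which encodes the receptor, was read at 2833 and 2428 CPM at 0 h and at 1947 and 1779 CPM at 2 h. Both 2 h libraries were below both 0 h libraries, but the difference was not called (log2 fold change -0.50 ± 0.21 SE, adjusted p = 0.172). The level was not steady over the series: it was 6273 and 5330 CPM at 1 h and 1118 and 1130 CPM at 3 h. In the same test against 0 h, both were called (log2 fold change 1.14, adjusted p = 0.0141, and -1.23, adjusted p = 0.000264). Exon counts do not separate the construct from the endogenous gene and do not read the substitution. At 0 h the wt line had 552 and 824 CPM and the Ctrl line 3202 and 3431 CPM, so wt was not matched to the mutant lines for new NR3C1 RNA. The paper chose sorted cell fractions to match nuclear receptor protein between lines by immunofluorescence, which these RNA values do not measure.

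At 2 h, 993 genes were higher and 350 were lower than at 0 h, of 23651 tested, or 4.2% and 1.48% of all tested genes. In every called gene the 2 libraries at 2 h did not overlap the 2 at 0 h. This follows closely from the call and adds no support to it, and the share among all tested genes is not given here. The smallest p-value was that of ADPRHL1 among rising genes and that of KRTAP2-3 among falling ones. The median size of change was 1.02 on the log2 scale among rising genes and 0.92 among falling ones. A change of at least 3 on that scale was seen in 53 rising genes but in 6 falling genes. Protein-coding genes made up 86% of the rising and 70.3% of the falling genes, against 62.1% of all tested. The count of calls moved with single libraries: without 0 h replicate 2 it was 438, without 2 h replicate 1 it was 415, without 2 h replicate 2 it was 816, and without 0 h replicate 1 it was 2111.

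Of the 12 rising genes with the smallest p-values, SCNN1A and ZBTB16 had the largest folds. SCNN1A (chr12:6346843-6377730, minus strand, hg38) encodes the alpha subunit of the epithelial sodium channel and was at 0.885 and 0.602 CPM at 0 h and at 45 and 33.4 CPM at 2 h. Its mean rose 52.7-fold (log2 fold change 5.67 ± 0.41 SE, adjusted p = 2.1e-08). ZBTB16 (chr11:114059041-114256765, plus strand), which encodes the zinc finger repressor PLZF, had 2 and 3 counts in the libraries at 0 h and 114 and 112 counts at 2 h. The channel gene and the repressor gene were thus nearly silent in ethanol. EDN3, which encodes a vasoactive peptide, had 0 counts in both 0 h libraries and 32 and 22 counts at 2 h. Against a floor of 3 counts over the 0 h group, EDN3 was at least 18-fold higher.

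PDK4 (chr7:95583499-95596516, minus strand), a kinase that shuts pyruvate out of oxidation, went from 3.1 and 5.81 CPM to 49.3 and 54.6 CPM (log2 fold change 3.58 ± 0.31 SE, adjusted p = 2.29e-07). IP6K3, an inositol hexakisphosphate kinase, went from 1.47 and 1.7 CPM to 19.5 and 16.9 CPM. GGT5, a gamma-glutamyltransferase, went from 0.516 and 0.501 CPM to 8.83 and 5.61 CPM. All 3 enzymes rose. METTL7B, a methyltransferase, went from 1.62 and 2.81 CPM to 43 and 40.3 CPM. ADPRHL1, an ADP-ribosylhydrolase-like protein of muscle, had the smallest p-value of all and went from 11.4 and 10.9 CPM to 164 and 152 CPM (adjusted p = 1.19e-09).

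FKBP5 (chr6:35573585-35728583, minus strand) encodes a cochaperone that lowers the hormone affinity of the receptor. It was at 19.4 and 27.3 CPM at 0 h and at 95.2 and 112 CPM at 2 h, a 4.44-fold rise in the mean. MT1E, a metal-binding metallothionein, went from 98.3 and 51.2 CPM to 828 and 559 CPM. It belongs to a family of near-identical copies, so its own share of reads is uncertain. The transcription factor gene ZNF189, the actin regulator gene PHACTR3 and the long noncoding RNA MYOSLID rose by 2.98, 4.11 and 1.65 on the log2 scale. All 12 of these genes were called with each of the 4 libraries left out in turn.

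KRTAP2-3 and FST had the smallest p-values of the falling genes, and 4 of the first 12 (EGR1, NR4A2, ATF3 and EGR2) were on the list of immediate-early genes. EGR1 (chr5:138465479-138469303, plus strand), an immediate-early zinc finger factor, was at 4799 and 4605 CPM at 0 h and at 814 and 600 CPM at 2 h (log2 fold change -2.73 ± 0.30 SE, adjusted p = 5.97e-06). PTGS2 (chr1:186671791-186680922, minus strand) encodes the cyclooxygenase that makes prostaglandins in inflammation, and went from 60.7 and 73.8 CPM to 15.7 and 11.9 CPM. The mean level was 6.65-fold lower for EGR1 and 4.88-fold lower for PTGS2. NR4A2, an orphan nuclear receptor, went from 137 and 139 CPM to 30.1 and 28.7 CPM, and ATF3, a stress-induced factor, from 366 and 393 CPM to 90 and 88.8 CPM. NFKBIZ, an atypical inhibitor protein of the NF-kB pathway, fell by 1.29 on the log2 scale. CCL3, a chemokine gene outside these 12, had the largest fall of all named genes, from 27.9 and 33.2 CPM to 1.94 and 3.44 CPM.

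FST, which encodes the activin antagonist follistatin, went from 111 and 99.2 CPM to 29.6 and 30.3 CPM. TM4SF1, a membrane protein gene, went from 85.9 and 82.2 CPM to 37.1 and 38 CPM. KRTAP2-3, a keratin-associated protein gene with near-identical copies, fell by 2.30 on the log2 scale, the endocytic gene SNX18 by 1.37, MAP3K7CL by 1.42 and the noncoding SFTA1P by 1.72. The 12 calls held with each library left out in turn.

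**Figure D1:**
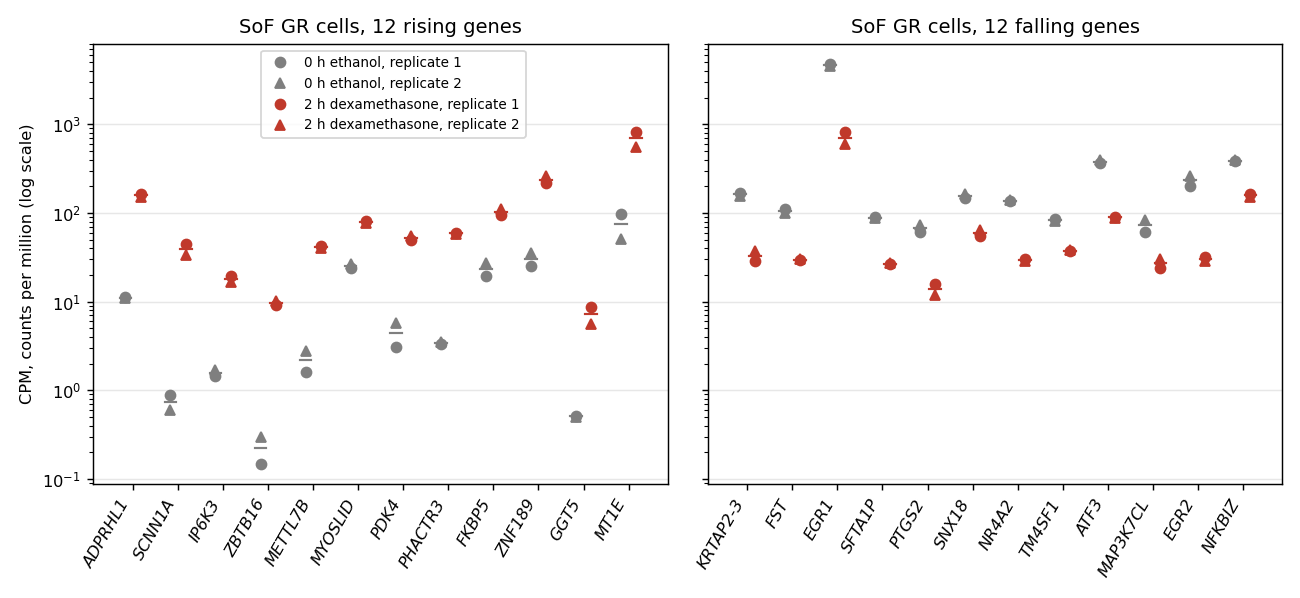
Level of the 12 rising and the 12 falling genes with the smallest p-values in SoF GR cells (y axis, CPM on a log scale), with 1 symbol per library and a bar at the mean of 2 libraries. Red symbols are 2 h of dexamethasone and grey symbols 0 h, ethanol, and they do not overlap because the genes were chosen for that. Levels run from ZBTB16 near the floor to EGR1 at 4799 and 4605 CPM at 0 h.

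Promoter sequence is shown for a few genes of both directions because the falling genes include EGR1, EGR2 and SRF, known targets of the serum response factor (SRF), which binds the CArG box, and because some rising genes hold a core of the receptor's own binding sequence near their start. They were picked after their values were seen. Sequences are from RefSeq promoters (build GRCh38.p14), which hold 250 bases before each start site. They are given 5′ to 3′ on the strand of the gene, with the match in capitals. RCAN1, which fell, also has ACANNNTGT in 1 promoter, outside the stretch shown, so the 2 sequences do not divide the genes by direction. The first 4 genes fell and carry a CArG box, and the last 3 rose and carry ACANNNTGT:
EGR1 (chr5:138465229-138465478, plus strand): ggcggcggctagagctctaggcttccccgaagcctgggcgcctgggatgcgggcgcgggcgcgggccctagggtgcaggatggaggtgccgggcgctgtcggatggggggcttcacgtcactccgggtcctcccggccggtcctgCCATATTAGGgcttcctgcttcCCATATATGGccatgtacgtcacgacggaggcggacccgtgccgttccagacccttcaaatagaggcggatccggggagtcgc
EGR2 (chr10:62816403-62816462, minus strand): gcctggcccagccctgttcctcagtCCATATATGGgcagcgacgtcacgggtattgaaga
SRF (chr6:43171214-43171268, plus strand): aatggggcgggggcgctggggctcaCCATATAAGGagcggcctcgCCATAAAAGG
RCAN1 (chr21:34615318-34615363, minus strand): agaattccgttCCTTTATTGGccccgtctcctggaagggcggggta
TSC22D3 (chrX:107775962-107776020, minus strand): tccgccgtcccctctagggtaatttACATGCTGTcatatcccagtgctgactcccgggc
TXNIP (chr1:145996719-145996777, minus strand): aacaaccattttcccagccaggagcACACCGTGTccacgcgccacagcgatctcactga
MAP3K6 (chr1:27367078-27367136, minus strand): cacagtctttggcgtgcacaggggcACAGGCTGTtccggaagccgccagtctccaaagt

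The 250 bases before the start were searched on both strands in protein-coding genes outside chromosome 8 and the mitochondrial genome, of which 193 of 233 falling and 657 of 808 rising genes had a promoter in the table. A CArG box was found in 12 of 323 promoters of falling genes (3.72%), in 8 of 1023 of rising genes (0.782%) and in 1.1% of all 16939 promoters. The falling genes with one were EGR1, EGR2, SRF, RCAN1, RND3, ACTC1, GBP1, BCL2L12, CUL4B, NCOA7 and ZNF548, a list set by the search and not by the rule for named genes. ACTC1, cardiac actin, went from 4.28 and 4.91 CPM to 0.648 and 0.814 CPM, and RND3, a small GTPase that loosens actin fibres, from 574 and 564 CPM to 240 and 288 CPM. RCAN1, an inhibitor of calcineurin, went from 719 and 784 CPM to 245 and 271 CPM.

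The sequence ACANNNTGT was found in 3.42% of promoters of rising genes, 4.33% of falling genes and 2.86% of all, so it was near the background in both sets. The TATA box TATAAA was in 11.5% of promoters of falling genes, 5.77% of rising genes and 6.55% of all. For the AP-1 site (TGACTCA or TGAGTCA) the shares were 4.95%, 4.01% and 3.19%, and for the cyclic AMP response element TGACGTCA 2.17%, 1.47% and 2.37%. These are descriptions of letters in a window, and many receptor sites lie outside it.

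Of 44 genes with an established rise under glucocorticoids, 39 were tested, 25 were higher at 2 h and 0 were lower. Their median log2 fold change was 1.26 against -0.02 for all genes. This list and those below were chosen with earlier results of these data known, so their counts are not independent support. Among all tested genes 4.2% rose and 1.48% fell. CEBPB, a basic leucine zipper factor, went from 65.8 and 31.1 CPM to 379 and 258 CPM. TSC22D3, which encodes the anti-inflammatory leucine zipper protein GILZ and whose promoter is shown above, went from 25.2 and 15.3 CPM to 75.6 and 36.8 CPM. MAP3K6, a kinase gene whose promoter is also shown, went from 11.6 and 9.02 CPM to 26.4 and 19.2 CPM. Libraries of both genes did not overlap between times, but for TSC22D3 the spread at 2 h was wide (log2 fold change 1.46 ± 0.34 SE, adjusted p = 0.0105).

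Some textbook targets were not called. DUSP1, a MAP kinase phosphatase, was at 1299 and 911 CPM at 0 h and at 1335 and 995 CPM at 2 h (log2 fold change 0.08 ± 0.21 SE). ERRFI1, an inhibitor of the EGF receptor, had a log2 fold change of -0.04 ± 0.24 SE. DDIT4, a restrainer of mTORC1, stood at 126 and 53.4 CPM and then at 262 and 168 CPM (adjusted p = 0.058). SGK1, a kinase that keeps sodium channels at the membrane, was called at a small size (0.53 ± 0.15 SE) and lost the call with any of the 4 libraries left out. Of the 25 calls, 14 were kept without 0 h replicate 2 and 14 without 2 h replicate 1.

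Of 25 immediate-early genes, all tested, 13 were lower and 1 was higher, with a median log2 fold change of -0.80. The 4 EGR family members EGR1, EGR2, EGR3 and EGR4 had values of -2.73, -2.94, -1.25 and -3.05, and EGR3 was not called. FOS, a subunit of AP-1, went from 384 and 385 CPM to 94.9 and 75.7 CPM, and FOSB, its close relative, from 37.4 and 56.6 CPM to 11.7 and 10.8 CPM. JUN, the partner subunit, fell by less (0.71 on the log2 scale), and FOSL2, JUNB and JUND were not called. NAB2, which encodes a corepressor of the EGR factors, rose from 190 and 121 CPM to 621 and 518 CPM. Of the 13 calls, 9 were kept without 0 h replicate 1, 9 without 0 h replicate 2, 7 without 2 h replicate 1 and 8 without 2 h replicate 2, and the NAB2 call was lost without 0 h replicate 2 and without 2 h replicate 1.

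The libraries at the other labelled times place these levels in order. EGR1 was at 4648 and 4587 CPM at 1 h and at 132 and 141 CPM at 3 h. ATF3 and PTGS2 also had 1 h values close to those at 0 h, with 398 and 467 CPM for ATF3 and 67 and 70.7 CPM for PTGS2. Against 0 h, EGR1 was not called at 1 h (log2 fold change -0.03, adjusted p = 0.992) and fell by 5.11 on the log2 scale at 3 h (adjusted p = 1.15e-09). NR4A2 was at 65.1 and 73.2 CPM at 1 h and was not called there (adjusted p = 0.2). Among rising genes, PDK4 had 44.9 and 58.7 CPM at 1 h, near its level at 2 h, whereas FKBP5 had 41.6 and 38 CPM at 1 h and 298 and 297 CPM at 3 h. PER1 had 249 and 233 CPM at 1 h, 415 and 296 CPM at 2 h and 224 and 213 CPM at 3 h. At 1 h against 0 h, PDK4 was called (adjusted p = 6.8e-07) and FKBP5 was not (adjusted p = 0.257). The comparisons at 1 h, 2 h and 3 h share the 0 h libraries, and these times were not tested against each other.

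**Figure D2:**
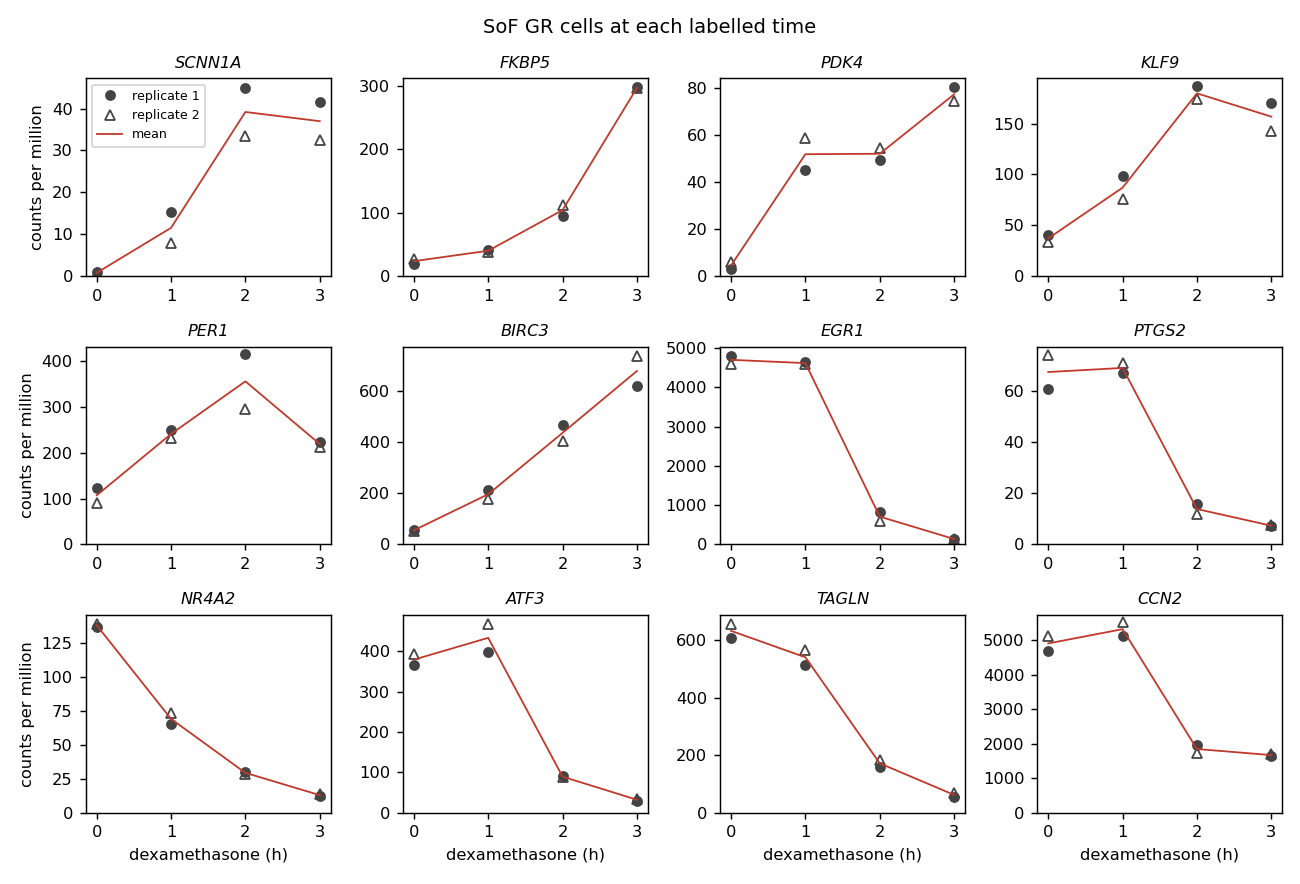
Level of 12 genes in SoF GR cells (y axis, CPM, starting at 0) at 0, 1, 2 and 3 h of dexamethasone (x axis), with filled circles for replicate 1, open triangles for replicate 2 and a line through the mean of 2 libraries. EGR1, PTGS2, ATF3, TAGLN and CCN2 stay near their 0 h level at 1 h and are low at 2 h, while FKBP5 and BIRC3 are highest at 3 h.

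Genes of the actin cytoskeleton and of the Hippo pathway effector YAP fell in part. Of 20 SRF and actin genes, 3 were lower and 0 higher, with a median of -0.40. They were TAGLN (transgelin), from 609 and 657 CPM to 161 and 182 CPM, SRF itself, from 370 and 380 CPM to 144 and 152 CPM, and CNN1 (calponin), from 71.9 and 75.7 CPM to 23.3 and 29.4 CPM. Actin genes ACTB and ACTG1 had values of -0.40 and -0.45 and were not called. Without 2 h replicate 1 none of the 3 calls was kept. Of 19 YAP and Hippo genes, 2 were lower and 3 higher, and the lower ones were the matricellular genes CCN2, from 4677 and 5134 CPM to 1953 and 1741 CPM, and CCN1, from 5768 and 5238 CPM to 3050 and 2911 CPM. The higher ones were F3 (tissue factor), FJX1 and WWTR1, the last of which encodes the YAP partner TAZ. The CCN1 and CCN2 calls held in every leave-out, and the other 3 did not hold without 0 h replicate 2.

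Inflammatory genes did not fall as a group. Of 17 tested cytokine, chemokine and prostaglandin genes, PTGS2 was lower, and IL1A (interleukin-1 alpha, 2.65 and 1.2 CPM to 8.91 and 7.24 CPM) and CSF1 (a macrophage growth factor, 0.96 on the log2 scale) were higher. IL6 lay between 1.94 and 3.08 CPM in the 4 libraries (-0.16 ± 0.37 SE), and CXCL8 (interleukin-8, 0.87 ± 0.48 SE) and CCL2 (0.86 ± 0.37 SE) were not called. The median over the list was 0.77. CCL3 was not on the list. The IL1A and CSF1 calls did not hold without 0 h replicate 2 or without 2 h replicate 1.

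Feedback genes of NF-kB rose in 5 of 19 cases and fell in 1. BIRC3, an inhibitor of apoptosis, went from 56.9 and 52.8 CPM to 468 and 403 CPM (log2 fold change 2.99 ± 0.48 SE). The subunit gene NFKB1 went from 69.4 and 80.4 CPM to 173 and 202 CPM, and NFKBIA, the inhibitor that holds NF-kB in the cytoplasm, from 618 and 343 CPM to 1054 and 888 CPM. TNFAIP3, a deubiquitinase of the same loop, had 1.03 ± 0.36 SE and was not called. BIRC3 and NFKB1 alone of the 5 kept their call in every leave-out.

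Transcription factors of the KLF and C/EBP families rose in part. Of 17 KLF and SP genes 5 were higher and 0 lower. KLF9, the most changed, went from 40.6 and 33.4 CPM to 187 and 174 CPM (2.28 ± 0.26 SE), followed by KLF15, KLF10, KLF16 and KLF13 at 1.42, 1.14, 1.09 and 1.03. KLF9 and KLF13 were called in every leave-out. Of 5 C/EBP genes, CEBPB and CEBPD were higher. CEBPB was called in every leave-out, and CEBPD in 2 of the 4. Of 20 clock genes, PER1 and BHLHE40, both repressors of the clock, were higher, and BHLHE40 kept its call in 1 of 4 leave-outs. PER1 and BHLHE40 are 10% of the tested clock genes, against 4.2% of all tested genes that rose. The core clock genes CLOCK and BMAL1 had -0.26 and -0.08.

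Regulators of fuel use and of insulin and mTORC1 signalling also had rising members. Of 22 such signalling genes 5 were higher and 0 lower. CASTOR1, an arginine sensor that restrains mTORC1, went from 7.81 and 4.51 CPM to 50.6 and 32.1 CPM. TXNIP, an arrestin-like protein that limits glucose uptake, went from 10.6 and 14.6 CPM to 74.3 and 63 CPM. ARRDC2, a relative of TXNIP, rose by 2.10 on the log2 scale and the transcription factor gene FOXO1 by 1.67. These 4 were called in every leave-out, and PIK3R1, the other called gene, in none. Of 24 fuel and lipid genes 4 were higher: PDK4, ETNK2 (an ethanolamine kinase, 15 and 10.3 CPM to 49.3 and 39.4 CPM), PLIN2 (a lipid droplet coat protein) and PDP2 (a phosphatase of the enzyme complex that PDK4 inhibits). PLIN2 and PDP2 lost their calls without 0 h replicate 2 or 2 h replicate 1. Over 23 genes of cholesterol and fatty acid synthesis the median log2 fold change was -0.04.

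Several signalling lists had a few members called. Of 31 TGF-beta and BMP genes 4 were higher, led by the corepressor gene TGIF1 (78.2 and 62.7 CPM to 241 and 232 CPM), with TGFB1 and TGFBR2 among them, and 3 were lower, BMPR1A, TGFBR3 and the BMP antagonist gene NOG. Of these 7 only TGIF1 kept its call in every leave-out. Of 25 WNT and Notch genes 5 were higher, WNT7B, LFNG, AXIN2, DKK3 and AXIN1, of which WNT7B (4.79 and 4.81 CPM to 13.9 and 15.7 CPM), AXIN2 and DKK3 kept theirs in every leave-out. Of 24 SOCS, STAT and interleukin-6 receptor genes 4 were higher and 1 lower. IL6ST, the shared receptor subunit gp130, went from 132 and 147 CPM to 260 and 298 CPM, while STAT3, which acts downstream of it, went from 196 and 185 CPM to 143 and 127 CPM. The STAT3 call was lost in each leave-out. Those of SOCS1, IL6R and PIM3 were lost without 0 h replicate 2 and without 2 h replicate 1.

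Of 17 MAP kinase phosphatase and Sprouty genes, DUSP2, DUSP7 and DUSP9 were higher and none was lower, and all 3 lost their calls without 0 h replicate 2. Of 10 EGF receptor ligands and receptors, the ligand genes HBEGF (102 and 75 CPM to 213 and 252 CPM) and AREG (15.3 and 11 CPM to 67.3 and 43.8 CPM) were higher, and both lost their calls without 0 h replicate 2. Of 19 mRNA decay genes, ZFP36L2 and ZFP36, whose proteins bind AU-rich elements and shorten transcript life, were higher at 1.64 and 1.03. ZFP36 lost its call without 0 h replicate 2.

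Matrix and bone genes moved in both directions. Of 31 matrix and protease genes 3 were higher, ADAMTS9 and PLAT among them, and 4 were lower, MMP3, COL3A1, ADAMTS1 and ADAMTS5. COL3A1, a fibrillar collagen gene, went from 55.6 and 70 CPM to 23.1 and 26.1 CPM and was the only one of the 7 called in every leave-out. Of 8 tested osteoblast genes, ALPL, the alkaline phosphatase of mineralising bone, went from 10.2 and 10.2 CPM to 39.9 and 38 CPM. RUNX2, the master factor of the lineage, went from 121 and 127 CPM to 58 and 63.2 CPM, and TNFRSF11B, which encodes the osteoclast inhibitor osteoprotegerin, from 32.3 and 47.7 CPM to 9.72 and 10.9 CPM. Both falls lost their calls without 2 h replicate 1, and TNFRSF11B also without 0 h replicate 2 and without 2 h replicate 2. Of 15 sodium-handling genes 3 were higher, SCNN1A and SGK1 among them, and without 0 h replicate 2 only SCNN1A was kept.

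Of 28 ribosome biogenesis genes 5 were higher (BOP1, MYBBP1A, NOP14, DKC1 and TSR1) and 0 lower, and the median was 0.49, with all 28 members above 0. BOP1 was the one kept in every leave-out. Of 21 heat shock genes FKBP4, HSF1 and HSPA4 were higher, and these calls were lost without 0 h replicate 2 and without 2 h replicate 1. Of 21 genes of the unfolded protein and ATF4 response, the amino acid transporter gene SLC7A5 was higher and the phosphatase subunit gene PPP1R15A was lower. The SLC7A5 call was lost without 0 h replicate 2 and without 2 h replicate 1. The PPP1R15A call was lost in every leave-out except that of 0 h replicate 2. The shares in the unfolded protein and ATF4 list were 4.76% rising and 4.76% falling, against 4.2% and 1.48% of all tested genes. The rising share was thus near that of all genes. Of 24 genes of the receptor, its chaperones and coregulators, FKBP5 and FKBP4 were higher (8.33%). Of 22 p53 targets 1 was lower (PLK2, -1.18 ± 0.20 SE), of 27 DNA replication genes 1 (E2F8) and of 24 mitosis genes 1 (KIF23), and medians were -0.13, -0.03 and -0.12. The E2F8 call was lost in each leave-out, and the KIF23 call in every leave-out except that of 0 h replicate 1.

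**Figure D3:**
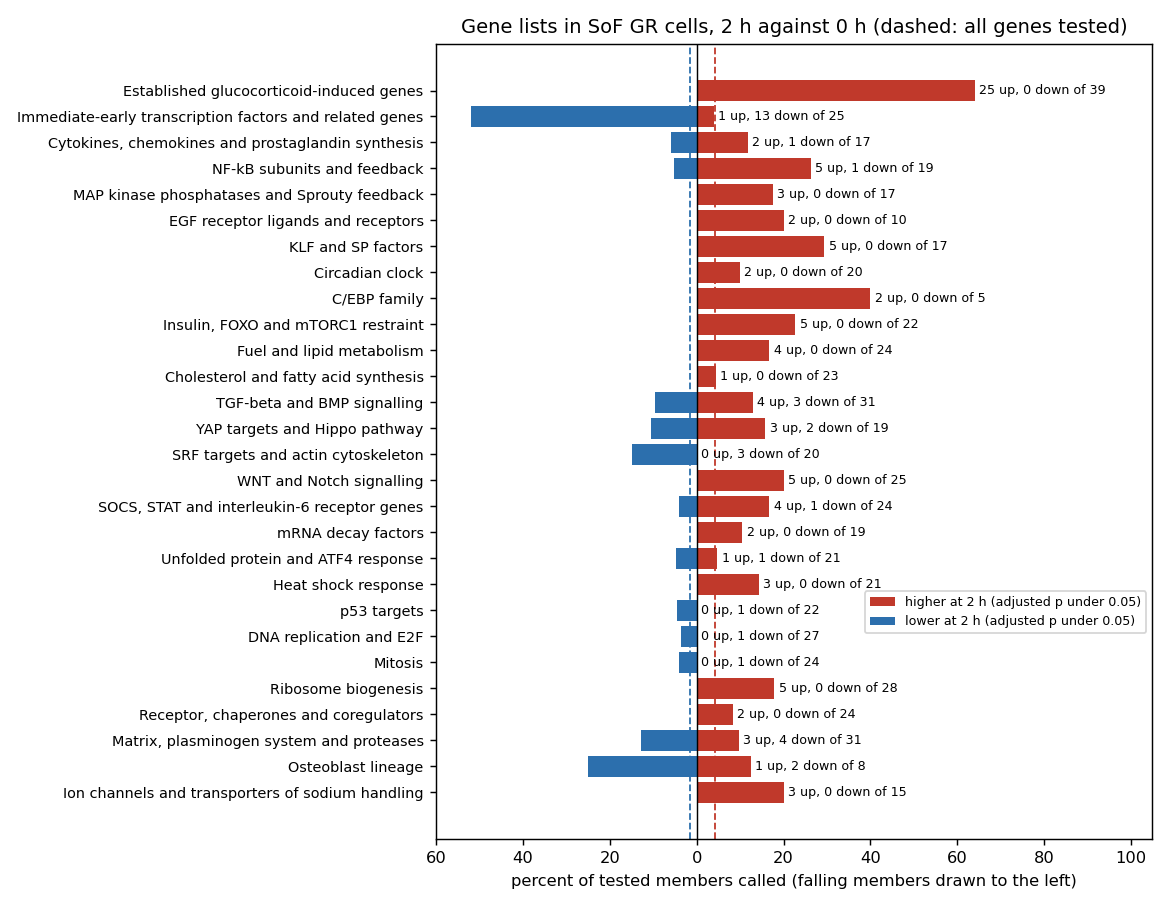
Share of the tested members of each of 28 gene lists that were called in SoF GR cells at 2 h against 0 h (x axis, percent, rising members to the right in red and falling members to the left in blue), with counts beside each bar and dashed lines at the shares of all genes tested. The established glucocorticoid-induced genes reach 64.1% rising and the immediate-early genes 52% falling, against 4.2% and 1.48% of all genes. Lists and members were chosen with earlier results of these data known, so the shares are not independent support.

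The called genes had other properties in common. Among protein-coding genes the median GC content of transcripts was 56.8% for rising genes, 45% for falling genes and 49.1% for all tested, and the median gene span was 19408, 84772 and 34598 bases. Over 5 equal groups of genes by GC content, the median log2 fold change was -0.17 and 1.26% rose in the lowest group, and in the highest it was 0.29 and 11.6% rose. Replicates of the same time differed along the same axis: in the group with the highest GC content, replicate 1 exceeded replicate 2 by a median of 0.37 at 0 h and 0.28 at 2 h on the log2 scale. Between single libraries, 2 h replicate 2 minus 0 h replicate 1 gave -0.03 in that group and 2 h replicate 1 minus 0 h replicate 2 gave 0.65. Whether GC content gave rise to the calls of single genes was not tested, but the calls were repeated with its trend removed. With cubic trends in GC content and span removed from each library, 1004 genes were higher and 468 lower. Still called were 799 of the 993 rising and 278 of the 350 falling genes, including all 24 at the top. Among those no longer called were CSF1, DUSP9, KLF15, KLF16, BHLHE40, SOCS1, HSF1 and MYBBP1A.

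**Figure D4:**
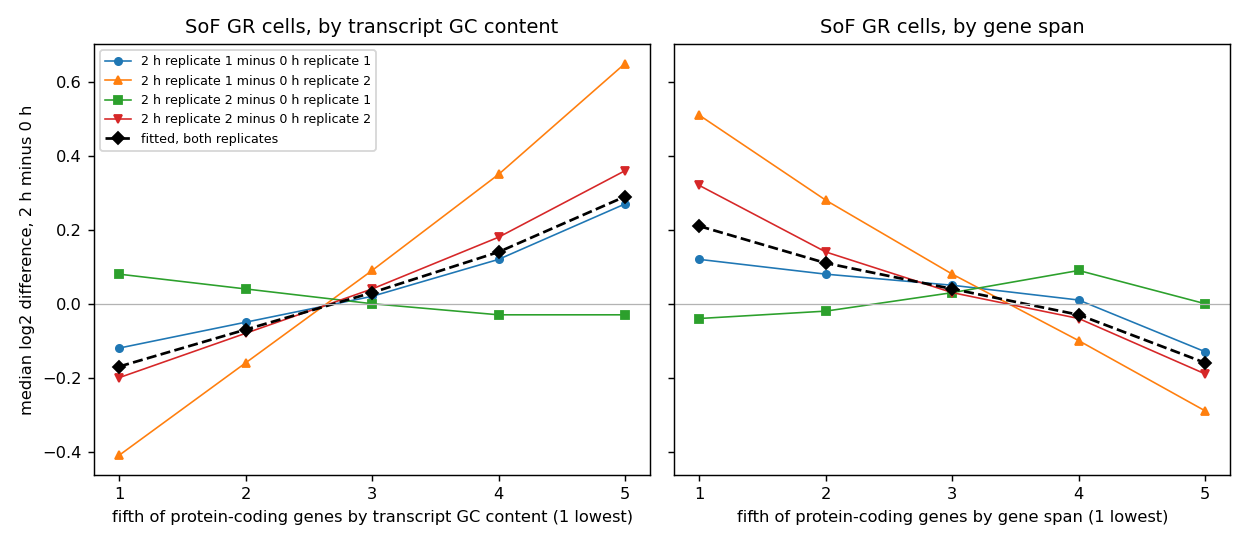
Median log2 difference between 2 h and 0 h in SoF GR cells (y axis) in 5 equal groups of protein-coding genes by transcript GC content (left) or gene span (right), with the lowest group first on both x axes. Coloured lines take 1 library from each time and the dashed black line is the fit over both replicates, and at the highest GC content they lie between -0.03 and 0.65.

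The wt and Ctrl lines had their own libraries at both times. In wt 3.39% of the tested genes rose and 1.22% fell, and in Ctrl 5.58% and 2.38%. Of the 993 genes that rose in SoF, 556 (56%) also rose in wt, or 69.4% of the 801 that rose there, and 714 (71.9%) also rose in Ctrl, or 54.1% of the 1319 there. Of the 350 that fell, 159 (45.4%) fell in wt and 242 (69.1%) in Ctrl, which are 55.2% and 43.1% of the falling genes of those lines. None was called in the opposite direction in either. The median log2 fold change of the SoF risers was 0.78 in wt and 0.94 in Ctrl, and they were selected on SoF, where it was 1.02. The replicates of the lines deviated alike at 0 h, with correlations across genes of 0.396 for SoF with wt and 0.568 for SoF with Ctrl, so the 0 h groups do not vary independently.

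The difference in response was tested gene by gene. No gene was called for SoF minus wt or for SoF minus Ctrl by edgeR's quasi-likelihood test, and DESeq2 called 0 in both. In the edgeR test 388 and 303 genes had an unadjusted p under 0.05. That is fewer than the 1183 expected if no gene differed, so these counts give no sign of differences and the test was conservative here. The median SE of these differences was 0.364 and 0.369 on the log2 scale, so small differences were not detectable at this replication. Large ones were not called either, such as 2.39 ± 0.60 SE for PDK4 in SoF minus Ctrl. The lack of calls therefore does not show that the responses were equal. A total of 176 rising and 93 falling genes were called in SoF and in neither other line, and none of them is shown to differ between lines.

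PDK4 stood at 42.7 and 39.2 CPM in wt at 2 h and at 1.8 and 3.55 CPM in Ctrl at 2 h, against 0.928 and 1.65 CPM in Ctrl at 0 h. Its log2 fold change was 3.35 in wt and 1.19 in Ctrl, and SoF minus Ctrl was 2.39 ± 0.60 SE (adjusted p = 1). TXNIP had 1.61 in wt and 0.67 in Ctrl, and SoF minus Ctrl was 1.78 ± 0.42 SE. ADPRHL1 had 3.13 and 2.60, and METTL7B 2.92 and 4.00. SGK1 had 0.79 in wt and -0.10 in Ctrl. Among falling genes EGR1 had -3.02 and -2.77, PTGS2 -1.84 and -2.57, and CCL3 -3.29 and -3.57, close to the SoF values. All 12 top falling genes and 11 of the 12 top rising genes were called in Ctrl, and all 24 in wt.

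**Figure D5:**
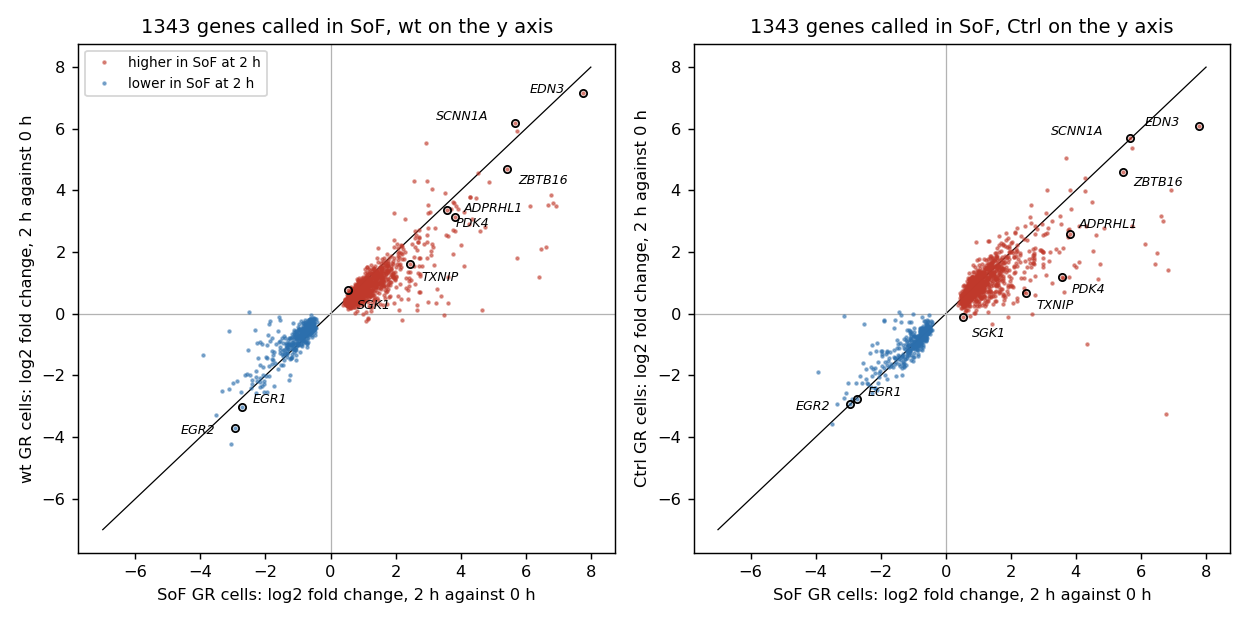
Log2 fold change at 2 h against 0 h in wt (left, y axis) and Ctrl (right, y axis) against that in SoF (x axis) for the 1343 genes called in SoF, which were chosen on the x axis, with the diagonal drawn. SCNN1A and EGR1 lie near the diagonal in both, and PDK4 and TXNIP lie below it in Ctrl, at 1.19 and 0.67.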

How the data were processed

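The 4sU-seq libraries were made from purified, labelled RNA. The authors trimmed reads (Trim Galore 0.6.6), aligned them to hg38 (STAR 2.7.3a), removed duplicate molecules (UMI-tools 1.1.2) and counted exon reads per gene with featureCounts. The deposited table holds whole-number counts with no normalization. Only the name of the table says that strand was used in counting. Symbols and positions came from GENCODE release 44, which matched 99.7% of 61533 genes.

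Counts were tested in edgeR 4.0.16 (R 4.3.3) with TMM normalization, filterByExpr (minimum count 10, minimum total 15), the quasi-likelihood F test over 12 groups and 24 libraries, and Benjamini-Hochberg adjustment. The script was tested on simulated data. SE is the absolute log2 fold change over the square root of F. RPKM used exon length. DESeq2 1.42.0 was the other tool, and further alternatives are given in the closing section. The removal of GC and span trends was added after seeing the data.

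The filter for named genes was a call, a symbol, a mean of at least 1 CPM and no overlap. It was applied to the 12 smallest p-values and 3 largest changes in each direction. Up to 4 called genes per list, those with the smallest p-values, were named without the mean and overlap filter. NR3C1 was named as a check of the construct, and uncalled members of lists for contrast. Further called members of the lists, such as FOS, FOSB, JUN, NAB2 and EGR4, were named after their values were seen. Lists and members were chosen with earlier results of these data known. EGR2, NFKBIZ, PER1, CASTOR1, FOXO1, TAGLN, AXIN2, BOP1, DKC1, COL3A1 and ALPL overlap another gene on their strand, so their counts are uncertain. Some members of the lists are not reported here.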

Additional observations from a re-analysis of the deposited data

How the results depend on the processing

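The count of 1343 genes called in SoF at 2 h stayed within 1.5 times under RLE normalization, no filter, SoF libraries only, GC and span trends removed, and DESeq2. It was 500 with the 4 compared libraries only, 665 with a minimum absolute log2 fold change of 1, 562 at an adjusted p under 0.01, and 415 to 2111 with 1 library left out. The corresponding counts were 1089 in wt (1706 with no filter, 523, 361, and 146 to 1159) and 1881 in Ctrl (800, 742, and 343 to 3305). With no filter on low counts, SoF minus wt gave 1 gene and SoF minus Ctrl 11. No named gene reversed. Of 96 named genes, 7 lost their call with GC and span trends removed, 24 with the compared libraries only, 39 without 0 h replicate 2 and 42 without 2 h replicate 1.

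The labels do not say that a replicate number marks a shared culture or batch, and the methods state that replicates went through the pulldown in pairs without saying which libraries were paired. Deviations of same-numbered SoF libraries correlated at 0.434 between 0 h and 2 h, 0.369 between 0 h and 1 h and 0.0401 between 0 h and 3 h, and with 2 pairs per comparison the pairing was not established. With a replicate block over 24 libraries 1666 genes were called, and with a replicate block within SoF 3615.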

Other observations

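Without the filter on low counts, 11 genes were called for the difference in the 2 h response between SoF and Ctrl, 10 of them higher in SoF. Each had at least 632 counts over the 24 libraries. They were chosen after their values were seen. TXNIP, MT1E, MT1X, MT2A, PDK4, ADPRHL1, EDN2, AREG, ZNF114 and the noncoding LINC02772 were higher and VWA5B2 was lower. With the filter, the log2 differences were 1.78 ± 0.42 SE for TXNIP and 2.39 ± 0.60 SE for PDK4. They were 1.21 ± 0.44 SE for MT1E, 1.26 ± 0.46 SE for MT1X and 0.98 ± 0.43 SE for MT2A. Each of these had an adjusted p of 1. The SE was larger beside the difference for AREG (1.21 ± 0.71 SE) and ZNF114 (1.34 ± 1.07 SE), so the 11 genes were not alike in this respect. The metallothioneins share near-identical sequence, so these 3 values are not independent. The size of the differences was nearly the same in both fits and the calls were not, and the cause was not tested.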
